A study of Mus musculus with 6 samples.

Results

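The SR protein genes and the hnRNP genes encode the principal families of sequence-specific splicing regulators, and their mRNA was followed here in 4T1 cells, a mouse mammary carcinoma line. Members were chosen by symbol, as Srsf followed by a number or as any symbol that begins with Hnrnp, with a mean of at least 1 over the 6 libraries. Of 24346 symbols 31 matched, and 30 of them reached that mean, 10 SR genes and 20 hnRNP genes. The one left out was Srsf12, a relative of Srsf10, which was listed at 0 in 4 libraries and at 0.023 and 0.026 in WT replicate 2 and shRNA1 replicate 2. The deposited values name no unit and were taken to be FPKM, which scales the fragments of a gene by transcript length and by library size. Levels of different genes are set side by side on that inference.

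RNA of 3 groups, prepared with a stranded mRNA kit, was sequenced, with 2 libraries in each. WT cells had been mock transfected, and shRNA1 and shRNA3 cells carried either of 2 short hairpin RNAs directed at the long noncoding RNA AU021063. No culture with a non-targeting hairpin is among the samples, and the labels do not tell whether paired libraries came from separate cultures. The p-values below set each change only against the scatter within pairs, estimated over the 3 groups and moderated over all genes. That scatter may be technical. The same labels do not say how the hairpins were delivered or whether the lines were clones. AU021063 stood at 1.82 and 1.67 FPKM in the WT pair, 1.04 and 0.572 in the shRNA1 pair, and 0.785 and 0 in the shRNA3 pair, below both WT libraries in all 4 hairpin libraries. Totals ran from 560862 to 604022 FPKM per library, and relative depth, estimated in coarse steps from low values set against WT replicate 1, ran from 86.8% to 105%. WT replicate 1 set against itself gave 100.3% by these steps. The absolute depth is unknown. The 5 carcinoma markers, mostly Krt8 and Krt18, summed to 929 to 962 FPKM in WT libraries, 1021 to 1090 in those of shRNA1 and 734 to 737 in those of shRNA3, while Epcam did not exceed 5.14 FPKM and Cdh1 was lower still. Of 4 fibroblast markers 3 reached 1 FPKM, with sums of 70.0 to 70.8 FPKM in WT libraries, 61.3 to 62.0 in those of shRNA1 and 59.7 to 63.7 in those of shRNA3, all below WT. With each hairpin 1 of these 3 was called higher and 1 lower. Endothelial markers summed to at most 0.194 FPKM and erythrocyte markers were at 0. Of 6 leukocyte markers 4 were at 0 throughout, Ptprc among them, and Cd68 alone reached 1 FPKM, at 6.50 and 6.69 FPKM in the WT pair, 18.5 and 16.0 in the shRNA1 pair, and 28.1 and 27.5 in the shRNA3 pair. The part of these markers in the results below was not tested.

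SR proteins carry an RNA recognition motif and a tail rich in arginine and serine. They bind exonic enhancers, recruit the spliceosome and mostly favour exon inclusion, and their activity is set by kinases that phosphorylate the tail. hnRNP proteins coat nascent transcripts, often act as silencers of splice sites, and share further tasks in RNA export, stability and translation. Many SR and hnRNP genes limit their own level by splicing in a poison exon with a premature stop codon, which sends the transcript to nonsense-mediated decay. In GENCODE release 21 on GRCm38 (mm10), 9 of the 10 SR genes and 10 of the 20 hnRNP genes had an annotated transcript of that class, against 30.3% of 10330 protein-coding genes tested. Both families also had more annotated transcripts per gene, with medians of 7.5 (SR) and 8.0 (hnRNP) against 5.0. The part of this in those shares was not tested. The deposited values are 1 number per gene, and productive and decay-prone transcripts could not be separated.

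The proximal promoters of 4 members that moved in different ways are shown, to place the expression values beside the sequence upstream of the gene. Each is the 150 bases before the start that RefSeq gives on GRCm38.p6, read 5′ to 3′ on the strand of the gene, with CCAAT and TATAAA, or their reverse complements, in capitals. Srsf2 lies at chr11:116853095-116853244 (minus strand), Srsf3 at chr17:29032510-29032659 (plus), Srsf6 at chr2:162931358-162931507 (plus) and Hnrnpc at chr14:52104022-52104171 (minus).
Srsf2: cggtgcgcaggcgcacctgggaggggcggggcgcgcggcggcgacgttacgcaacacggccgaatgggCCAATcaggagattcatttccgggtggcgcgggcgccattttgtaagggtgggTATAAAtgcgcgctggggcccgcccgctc
Srsf3: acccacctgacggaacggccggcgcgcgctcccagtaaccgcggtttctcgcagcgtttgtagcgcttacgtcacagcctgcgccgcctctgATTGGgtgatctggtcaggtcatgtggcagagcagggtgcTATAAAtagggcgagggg
Srsf6: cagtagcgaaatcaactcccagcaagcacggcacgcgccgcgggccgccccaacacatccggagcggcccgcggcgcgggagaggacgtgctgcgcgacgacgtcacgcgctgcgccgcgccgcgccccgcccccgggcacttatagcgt
Hnrnpc: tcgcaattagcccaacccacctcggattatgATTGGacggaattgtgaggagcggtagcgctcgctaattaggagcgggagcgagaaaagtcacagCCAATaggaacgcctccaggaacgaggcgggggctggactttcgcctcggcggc
In the 300-base window from 250 bases before to 50 after the start, searched on both strands, CCAAT was found in 4 of 10 SR genes and 12 of the 18 hnRNP genes with a window, against 39.5% of 8515 promoters. TATAAA was found in 2 and 2, against 6.41%. The GC box GGGCGG was found in 9 and 13, against 67.7%, and the E-box CACGTG in 0 and 4, against 10.6%. Of the genes printed, Srsf2, Srsf3 and Srsf6 were among the strongest falls with shRNA3 and Hnrnpc was the largest rise. CCAAT stands in genes of both kinds, while Srsf6 has neither CCAAT nor TATAAA in its 150 bases. The same 150 bases of Srsf1 and Hnrnpm, the largest falls of either family with shRNA3, also hold neither and are not printed. In the longer window Srsf1 has CCAAT and Hnrnpm has TATAAA.

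Both families were abundant. The SR genes summed to 734 and 711 FPKM in the WT libraries, to 728 and 748 with shRNA1, and to 585 and 557 with shRNA3. The hnRNP genes summed to 2486 and 2375 FPKM in the WT pair, 2348 and 2402 in the shRNA1 pair, and 1978 and 1933 in the shRNA3 pair. Both shRNA3 libraries lay below all others in either sum, while WT and shRNA1 overlapped in both. In shRNA3 cells the SR sum was 79.0% and the hnRNP sum 80.4% of the WT mean, a similar share for both that depended on Srsf5, the most abundant SR gene: without it the SR sum was 69.3% of WT. The SR sum divided by the hnRNP sum was 0.297 ± 0.00284 (SD, n = 2) in WT, 0.311 ± 0.00111 with shRNA1 and 0.292 ± 0.00548 with shRNA3. These sums have no test. In RNA of whole cultures, fewer cells of a type and less RNA per cell cannot be told apart.

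**Figure D1:**
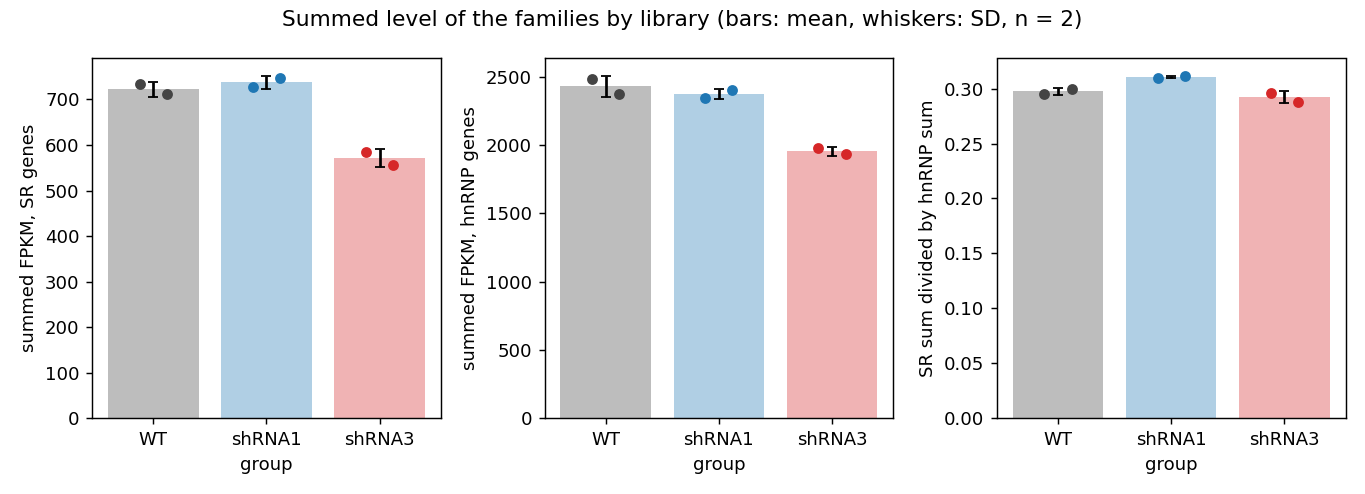
Summed FPKM of the 10 SR genes (left) and the 20 hnRNP genes (middle) and the SR sum divided by the hnRNP sum (right), by group. Points are libraries, bars are means and whiskers are SD (n = 2). The shRNA3 libraries have the lowest sums of both families, at 79.0% and 80.4% of WT, while the ratio stays between 0.288 and 0.311. The SR sum and the ratio include Srsf5, without which the SR sum was 91.0% of WT with shRNA1 and 69.3% with shRNA3.

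The SR sum with both hairpins depended on this single gene, which had a mean of 200.4 FPKM. Without Srsf5 the SR sum was 550 ± 9.72 FPKM (SD, n = 2) in WT, 500 ± 8.28 with shRNA1 and 381 ± 8.45 with shRNA3. That is 91.0% of WT with shRNA1 and 69.3% with shRNA3, against 102% and 79.0% with Srsf5 included. The hnRNP sum was at 97.7% and 80.4% of WT. Without Srsf5 the SR sum thus stood at a lower share of WT than the complete hnRNP sum with each hairpin. These shares are not a like comparison, since Srsf5 was itself at 137% of WT with shRNA1 and 110% with shRNA3. No hnRNP gene was left out, though Hnrnpc was at 133% of WT with shRNA3 and Hnrnph2 at 124% with shRNA1.

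Each gene was then tested with limma on log2(FPKM + 1), with Benjamini-Hochberg adjustment over 11079 genes (mean 1 or more), and was called at an adjusted p under 0.05. Changes called log2 below are on that scale, and percentages are ratios of group means. The 3 comparisons share libraries with each other (WT serves both hairpins), so their values are given side by side and no overlap between them is counted. The background of calls was high. With shRNA1 17.6% of all genes were called higher and 18.4% lower than WT, with shRNA3 27.4% higher and 27.8% lower, and between the hairpins 22.0% were higher and 20.5% lower in shRNA3.

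Beside this background, 7 of 10 SR genes were lower with shRNA3 and 0 higher (1 higher at an unadjusted p under 0.05 in limma), with a median log2 change of -0.27 where the median of all genes was -0.01. Of 20 hnRNP genes 12 were lower and 3 higher, with a median of -0.34. The 3 became 1 without shRNA3 replicate 1. Every member had a mean above 10 FPKM, and of the 6943 genes this abundant 29.1% were lower with shRNA3. With shRNA1 5 SR genes were lower and 1 higher (median -0.14), and 6 hnRNP genes were lower and 1 higher (median -0.01, against -0.01 for all genes). The number of 5 SR genes went to 2 when WT replicate 1, WT replicate 2, shRNA1 replicate 1 or shRNA1 replicate 2 was left out. Between the hairpins, shRNA3 was lower for 7 SR and 12 hnRNP genes and higher for 1 and 1, with medians of -0.27 and -0.27 against 0.01 for all genes.

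**Figure D2:**
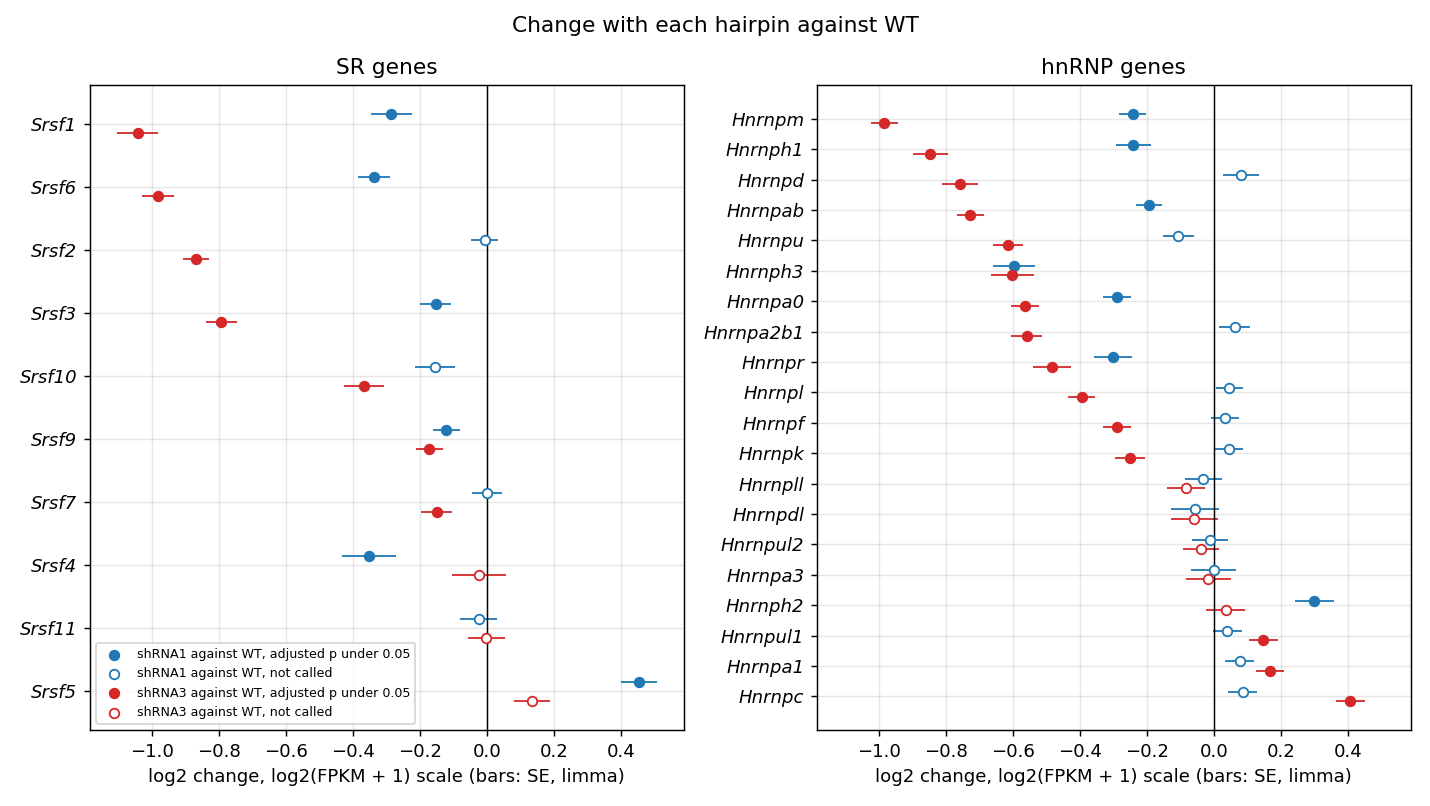
Log2 change on the log2(FPKM + 1) scale with shRNA1 (blue) and shRNA3 (red) against WT for each SR gene (left) and hnRNP gene (right), ordered by the shRNA3 value; bars are SE from limma and filled points are calls at an adjusted p under 0.05. The shRNA3 points reach -1.04 for Srsf1 and -0.98 for Hnrnpm, while Hnrnpc is at 0.41 with shRNA3 and Srsf5 at 0.45 with shRNA1.

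Among the SR genes, Srsf1 (chromosome 11, 88047373 to 88053755, plus strand) had the largest fall. It encodes a founding member of the family, with oncogenic activity when overexpressed in mammary cells. It was at 55.6 and 52.3 FPKM in the WT pair, 41.8 and 46.4 in the shRNA1 pair, and 26.2 and 25.1 in the shRNA3 pair. The 3 groups did not overlap. Srsf1 in shRNA3 cells was at 47.6% of WT, a log2 change of -1.04 ± 0.06 (SE, adjusted p = 1.03e-05), and 58.2% of the shRNA1 level (-0.76 ± 0.06, adjusted p = 9.93e-05). With shRNA1 it was at 81.8% of WT (-0.29 ± 0.06, adjusted p = 0.00932), a call that ended without WT replicate 1 (0.0589) or shRNA1 replicate 1 (0.0567; range over all alternatives 0.00418 to 0.0589).

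Srsf6 (chromosome 2, 162931528 to 162937121, plus strand), whose product regulates alternative exons in skin and neurons, went the same way with both hairpins. It was at 65.1 and 63.8 FPKM in the WT pair, 49.4 and 52.3 in the shRNA1 pair, and 32.7 and 31.6 in the shRNA3 pair. Each group stood clear of the others, with shRNA1 in between. The log2 change was -0.34 ± 0.05 (SE, adjusted p = 0.00141) with shRNA1 and -0.98 ± 0.05 (adjusted p = 4.41e-06) with shRNA3, or 78.9% and 49.8% of WT, and the difference between the hairpins was -0.65 ± 0.05 (adjusted p = 6.82e-05).

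Srsf2 (chromosome 11, 116849901 to 116853094, minus strand), the gene of a marker protein of nuclear speckles, was called against WT with shRNA3 and not with shRNA1. Its values were 88.7 and 88.9 FPKM in the WT pair, 89.4 and 87.5 in the shRNA1 pair, and 48.4 and 48.0 in the shRNA3 pair. The shRNA1 libraries lay on either side of WT, and the shRNA3 libraries were at 54.3% of it. The log2 change was -0.87 ± 0.04 (SE, adjusted p = 3.17e-06) with shRNA3 and -0.01 ± 0.04 (adjusted p = 0.923) with shRNA1. The test between the hairpins gave -0.86 ± 0.04 (adjusted p = 9.58e-06), the largest such difference of the SR genes. Of the 30 members 11 overlap exons of another gene on the other strand: Srsf1, Srsf2, Srsf4, Hnrnpab, Hnrnpd, Hnrnpf, Hnrnph3, Hnrnpk, Hnrnpl, Hnrnpr and Hnrnpu. Reads of such pairs cannot be told apart without strand. Exons of Srsf2 overlap Mfsd11 and Mettl23, and the sources used here do not say whether strand was used in quantification. Both neighbours were low, with group means from 7.35 to 9.34 FPKM.

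Srsf3 (chromosome 17, 29032628 to 29043373, plus strand) encodes the smallest SR protein, which also serves mRNA export. It was at 97.8 and 94.8 FPKM in the WT pair, 85.3 and 87.7 in the shRNA1 pair, and 56.8 and 53.6 in the shRNA3 pair. The groups were again ordered without overlap. With shRNA3 it was at 57.3% of WT (log2 change -0.79 ± 0.05, SE, adjusted p = 1.00e-05) and 63.8% of shRNA1 (-0.64 ± 0.05, adjusted p = 6.10e-05). With shRNA1 it was at 89.8% (-0.15 ± 0.05, adjusted p = 0.0347). That call ended without WT replicate 1 (0.152), WT replicate 2 (0.0693), shRNA1 replicate 1 (0.148) or shRNA1 replicate 2 (0.0780), without the variance trend (0.0780), and with the replicate number as a block (0.0583; range over all alternatives 0.00952 to 0.152). Of its 50-base stretches, 31.5% also occur in transcripts of 5 other genes, which makes its level uncertain, while Srsf1, Srsf2 and Srsf6 share none.

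Smaller falls were those of Srsf10, Srsf9 and Srsf7. Srsf10, whose dephosphorylated product acts as a splicing repressor in mitosis and heat shock, was at 48.2 and 44.8 FPKM in the WT pair, 39.7 and 43.5 in the shRNA1 pair, and 36.1 and 35.4 in the shRNA3 pair. It fell with shRNA3 (log2 change -0.37 ± 0.06, SE, adjusted p = 0.00130), and its value with shRNA1 was -0.16 ± 0.06 (adjusted p = 0.0768, and 0.0327 with libraries rescaled to the same total; range over all alternatives 0.0327 to 0.350). Its difference between the hairpins (-0.21, adjusted p = 0.0230) was lost without the filter on low values (0.0501), shRNA1 replicate 2 (0.134), shRNA3 replicate 1 (0.0713) or shRNA3 replicate 2 (0.105; range over all alternatives 0.0190 to 0.134). Srsf9, the second in level among the SR genes, was at 86.4 and 86.2 FPKM in the WT pair, 80.1 and 78.5 in the shRNA1 pair, and 75.7 and 77.3 in the shRNA3 pair. It was lower with shRNA3 (log2 change -0.17 ± 0.04, SE, adjusted p = 0.00738), a call that held in every alternative run. The change of Srsf9 with shRNA1 (-0.12 ± 0.04, adjusted p = 0.0475) lost its call when any 1 of the 6 libraries was left out (0.0643 to 0.175), with the replicate number as a block (0.0918), a pseudocount of 0.1 (0.0503), median-of-ratios scaling (0.0683) and no variance trend (0.104). Srsf7, an SR protein gene with a zinc knuckle in its product, was at 89.9% of WT with shRNA3 (-0.15 ± 0.05, adjusted p = 0.0242). This call ended without the variance trend (0.0531), WT replicate 1 (0.125) or shRNA3 replicate 2 (0.133; range over all alternatives 0.00452 to 0.133), and its difference between the hairpins (-0.15, adjusted p = 0.0310) ended without the variance trend (0.0653) or any 1 of the 4 hairpin libraries (0.0501 to 0.159).

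The remaining SR genes did not share the fall with shRNA3. Srsf5 (chromosome 12, 80945504 to 80950507, plus strand) was at 178 and 168 FPKM in the WT pair, 233 and 242 in the shRNA1 pair, and 199 and 182 in the shRNA3 pair. All 4 hairpin libraries were above WT, and the shRNA1 libraries were the highest. Srsf5 rose with shRNA1 to 137% of WT (log2 change 0.45 ± 0.05, SE, adjusted p = 5.19e-04), and its value with shRNA3 was 0.13 ± 0.05 (adjusted p = 0.0614, and 0.0290 without shRNA3 replicate 2; range over all alternatives 0.0290 to 0.337). Between the hairpins the change was -0.32 ± 0.05 (adjusted p = 0.00245). For Srsf5, 27.8% of 50-base stretches are shared with 1 other annotated gene. Srsf4, whose product has the longest arginine-serine tail of the classical members, was the least abundant SR gene tested, at 12.1 and 13.6 FPKM in the WT pair, 10.3 and 9.44 in the shRNA1 pair, and 13.3 and 11.9 in the shRNA3 pair. It fell with shRNA1 (-0.35 ± 0.08, adjusted p = 0.0122) and was higher in shRNA3 than in shRNA1 (0.33 ± 0.08, adjusted p = 0.0135). The first call ended without WT replicate 2 (0.0763) or shRNA1 replicate 2 (0.0752; range over all alternatives 0.00334 to 0.0763), and the second without shRNA1 replicate 2 (0.0829) or shRNA3 replicate 1 (0.0878; range 0.0101 to 0.0878). Exons of Srsf4 overlap Gm12992 on the other strand, which was at 17.6 FPKM in WT, 12.8 with shRNA1 and 16.2 with shRNA3. The part of this neighbour in the values of Srsf4 was not tested. Srsf11, which encodes an SR-related protein of the spliceosome, was at 43.8, 43.1 and 43.8 FPKM in the 3 groups, with log2 changes of -0.03 ± 0.06 and -0.00 ± 0.06 and overlapping libraries.

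**Figure D3:**
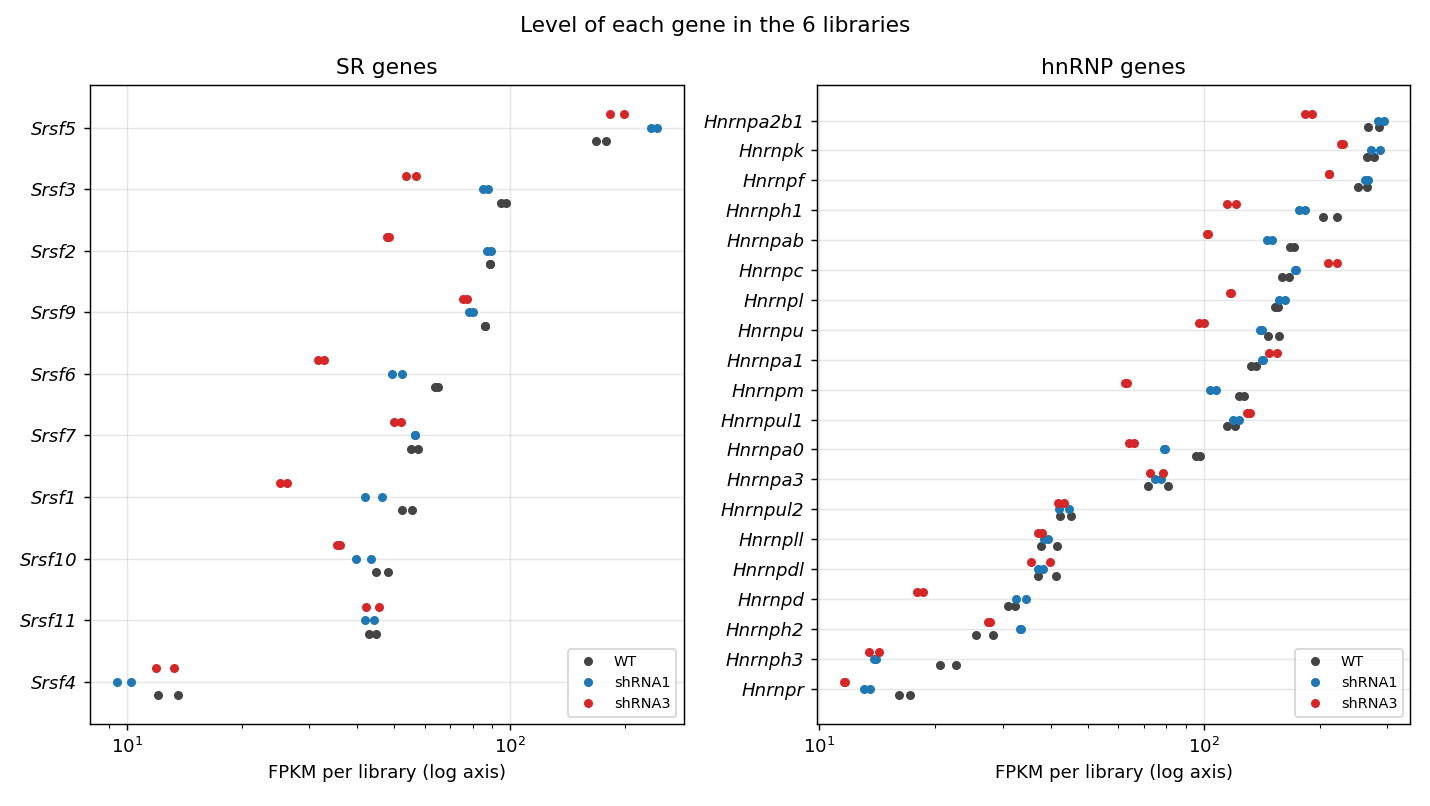
FPKM of each SR gene (left) and hnRNP gene (right) in each of the 6 libraries on a log axis, ordered by the WT mean. Grey points are WT, blue shRNA1 and red shRNA3; the red points of Srsf1, Srsf2, Srsf3, Srsf6, Hnrnph1, Hnrnpm and Hnrnpd stand well to the left of the others, and those of Hnrnpc to the right.

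Among the hnRNP genes, Hnrnpm (chromosome 17, 33646233 to 33686860, minus strand) fell most. Its product regulates exons that switch in the epithelial-mesenchymal transition. It was at 127 and 123 FPKM in the WT pair, 104 and 107 in the shRNA1 pair, and 63.2 and 62.5 in the shRNA3 pair. The ordering WT, shRNA1, shRNA3 had no overlap, as for Srsf1 and Srsf6. With shRNA3 it was at 50.2% of WT (log2 change -0.98 ± 0.04, SE, adjusted p = 1.88e-06), with shRNA1 at 84.4% (-0.24 ± 0.04, adjusted p = 0.00331), and the hairpins differed by -0.74 ± 0.04 (adjusted p = 2.25e-05). Hnrnpm shares 28.8% of its 50-base stretches with 1 other annotated gene and overlaps exons of another gene on its own strand.

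The members that bind runs of G, Hnrnph1, Hnrnph2, Hnrnph3 and Hnrnpf, each behaved differently. Hnrnph1 (chromosome 11, 50376990 to 50386528, plus strand) was at 222 and 205 FPKM in the WT pair, 177 and 184 in the shRNA1 pair, and 121 and 115 in the shRNA3 pair. It was at 55.4% of WT with shRNA3 (log2 change -0.85 ± 0.05, SE, adjusted p = 1.22e-05) and 84.6% with shRNA1 (-0.24 ± 0.05, adjusted p = 0.00925), and the hairpins differed (-0.61 ± 0.05, adjusted p = 1.25e-04). The shRNA1 call ended without WT replicate 1 (0.0575) or shRNA1 replicate 1 (0.0580; range over all alternatives 0.00272 to 0.0580). Hnrnph3 (chromosome 10, 63014664 to 63024217, minus strand) was at 22.7 and 20.6 FPKM in the WT pair, 13.9 and 14.0 in the shRNA1 pair, and 14.3 and 13.5 in the shRNA3 pair. The hairpin groups overlapped each other and lay clear of WT, at 64.5% and 64.3% of it (-0.60 ± 0.06 in both; adjusted p = 3.32e-04 with shRNA1 and 1.57e-04 with shRNA3). The hairpins differed by -0.00 ± 0.06 (adjusted p = 0.958). Hnrnph2, a gene on the X chromosome, was at 28.4 and 25.5 FPKM in the WT pair, 33.5 and 33.3 in the shRNA1 pair, and 27.8 and 27.4 in the shRNA3 pair. It rose with shRNA1 (0.30 ± 0.06, adjusted p = 0.00588), while shRNA3 gave 0.04 ± 0.06 (adjusted p = 0.629), and the hairpins differed (-0.26 ± 0.06, adjusted p = 0.00822). Hnrnph2 shares 18.2% of its 50-base stretches with 1 other annotated gene. Hnrnpf was at 266 and 251 FPKM in the WT pair, 263 and 267 in the shRNA1 pair, and 211 and 212 in the shRNA3 pair. It fell with shRNA3 to 81.7% of WT (-0.29 ± 0.04, adjusted p = 7.23e-04), and 49.0% of its 50-base stretches occur in other genes, the largest share of any member.

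In the group of Hnrnpa and Hnrnpd genes, whose products combine a pair of RNA recognition motifs with a glycine-rich tail, shRNA3 gave both falls and a rise. Hnrnpd (chromosome 5, 99955935 to 99978938, minus strand) encodes a protein of AU-rich elements that controls mRNA decay. It was at 32.3 and 31.0 FPKM in the WT pair, 32.6 and 34.5 in the shRNA1 pair, and 18.7 and 17.9 in the shRNA3 pair. It fell with shRNA3 to 57.9% of WT (log2 change -0.76 ± 0.05, SE, adjusted p = 2.30e-05) and differed by -0.84 ± 0.05 between the hairpins (adjusted p = 3.65e-05), the largest such difference of the hnRNP genes. With shRNA1 the value was 0.08 ± 0.05 (adjusted p = 0.272). Hnrnpab (chromosome 11, 51600100 to 51606847, minus strand), a close relative, was at 172 and 168 FPKM in the WT pair, 146 and 151 in the shRNA1 pair, and 102 and 103 in the shRNA3 pair. Its log2 change was -0.19 ± 0.04 (adjusted p = 0.00741) with shRNA1 and -0.73 ± 0.04 (adjusted p = 7.34e-06) with shRNA3, with no overlap between the groups.

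Hnrnpa2b1 (chromosome 6, 51460932 to 51469894, minus strand), whose product also sorts RNA for transport, was the second in level over the 6 libraries. It was at 285 and 268 FPKM in the WT pair, 284 and 293 in the shRNA1 pair, and 191 and 183 in the shRNA3 pair. WT and shRNA1 overlapped (0.06 ± 0.05, adjusted p = 0.325). It fell with shRNA3 to 67.8% of WT (log2 change -0.56 ± 0.05, SE, adjusted p = 4.88e-05) and 64.9% of shRNA1 (-0.62 ± 0.05, adjusted p = 6.82e-05). Hnrnpa0 was at 96.7 ± 1.75 FPKM (SD, n = 2) in WT, 79.0 ± 0.513 with shRNA1 and 65.1 ± 1.39 with shRNA3, with calls in all 3 comparisons. Hnrnpa1, a repressor of exons and the best known member, was at 137 and 133 FPKM in the WT pair, 142 and 142 in the shRNA1 pair, and 155 and 148 in the shRNA3 pair. It rose slightly with shRNA3 (0.17 ± 0.04, adjusted p = 0.00972), a call that ended without WT replicate 2 (0.0570), without shRNA3 replicate 1 (0.0610) and with libraries rescaled to the same total (0.0875; range over all alternatives 0.00789 to 0.0875). Of its 50-base stretches 46.4% occur in other genes, 18 of them. Hnrnpa3 and Hnrnpdl overlapped between all groups, at group means of 75.5 to 76.4 and 37.6 to 39.2 FPKM. For Hnrnpa3, 28.2% of 50-base stretches also occur in transcripts of 43 other genes.

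Hnrnpc was the member that rose most with shRNA3. Its product binds runs of U and masks cryptic splice sites. Hnrnpc (chromosome 14, 52073377 to 52104028, minus strand) was at 166 and 160 FPKM in the WT pair, 172 and 174 in the shRNA1 pair, and 222 and 211 in the shRNA3 pair. Both shRNA3 libraries stood above all others. The log2 change was 0.41 ± 0.04 (SE, adjusted p = 1.61e-04) with shRNA3, or 133% of WT, and 0.32 ± 0.04 between the hairpins (adjusted p = 9.31e-04), while shRNA1 gave 0.09 ± 0.04 (adjusted p = 0.156). Hnrnpc shares 12.3% of its stretches with 2 other genes. Hnrnpul1, of the U-like branch that takes part in the DNA damage response, also rose with shRNA3 (0.15 ± 0.04, adjusted p = 0.0191), from 118 ± 3.90 FPKM (SD, n = 2) to 131 ± 1.26. This call ended without the variance trend (0.0542), WT replicate 1 (0.112), shRNA3 replicate 1 (0.0551) or shRNA3 replicate 2 (0.0845), and with libraries rescaled to the same total (0.192; range over all alternatives 0.0147 to 0.192).

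Of the other hnRNP genes, Hnrnpk, Hnrnpl and Hnrnpu fell with shRNA3 and were not called with shRNA1. Hnrnpk (chromosome 13, 58391142 to 58403343, minus strand), which encodes a KH-domain protein of C-rich sequences, had the highest mean of all members, 260 FPKM. It was at 278 and 266 FPKM in the WT pair, 272 and 288 in the shRNA1 pair, and 230 and 227 in the shRNA3 pair. Its fall to 84.0% of WT with shRNA3 (log2 change -0.25 ± 0.04, SE, adjusted p = 0.00195) was the smallest of the 12 hnRNP falls with shRNA3, and 34.5% of its stretches occur in other genes. Hnrnpl, a regulator that binds CA repeats, was at 155 ± 1.99 FPKM (SD, n = 2) in WT, 160 ± 4.04 with shRNA1 and 117 ± 0.779 with shRNA3. Hnrnpu, which also anchors chromatin, was at 152 ± 7.06, 141 ± 0.888 and 98.8 ± 2.06 FPKM, and its exons overlap Cox20 on the other strand, at 70.8, 75.2 and 56.7 FPKM. The part of Cox20 in the values of Hnrnpu was not tested. Hnrnpu was called lower with shRNA1 after quantile normalization (adjusted p = 0.0454) and rescaling to the same total (0.0388; range over all alternatives 0.0388 to 0.442). Hnrnpr, the least abundant in shRNA3 cells, was at 16.7 ± 0.743, 13.3 ± 0.312 and 11.6 ± 0.0559 FPKM. It fell with shRNA1 (-0.30 ± 0.06, adjusted p = 0.00557) and with shRNA3 (-0.48 ± 0.06, adjusted p = 2.84e-04). Its difference between the hairpins (-0.18, adjusted p = 0.0352) was lost when any 1 of the 4 hairpin libraries was left out (0.0793 to 0.150), without the filter on low values (0.0527) and with the replicate number as a block (0.0589). Hnrnpll and Hnrnpul2 were called in none of the comparisons, with group means of 37.5 to 39.8 and 42.6 to 43.8 FPKM.

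The surrounding machinery was described from lists of splicing genes, whose single genes were not run through the alternatives. Of 24 hnRNP relatives under other symbols, 10 were lower and 3 higher with shRNA3 (median log2 change -0.12). That is 41.7% and 12.5%, against 27.8% lower and 27.4% higher over all genes tested. With shRNA1 5 were lower and 1 higher (median -0.08), or 20.8% and 4.17%, against 18.4% and 17.6% of all genes. Tia1, which encodes a stress granule and splicing protein, was at 14.7 ± 0.424 FPKM (SD, n = 2) in WT, 11.8 ± 0.162 with shRNA1 and 9.26 ± 0.0580 with shRNA3, and was called lower with each (adjusted p = 0.00588 and 8.40e-05).

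Of 25 SR-like and SR-related factors, 13 were lower and 2 higher with shRNA1 (median -0.16). That is 52.0% and 8.0%, against 18.4% and 17.6% of all genes tested. With shRNA3 13 were lower and 4 higher (median -0.18), or 52.0% and 16.0%, against 27.8% and 27.4%. Between the hairpins 6 were higher and 6 lower, or 24.0% each way, against 22.0% higher and 20.5% lower. Tra2b, a sequence-specific activator with arginine-serine tails on both ends, was at 118 and 116 FPKM in the WT pair, 89.5 and 89.6 in the shRNA1 pair, and 87.5 and 84.6 in the shRNA3 pair. The hairpin groups lay close together below WT, at log2 changes of -0.38 ± 0.04 and -0.44 ± 0.04 (SE, adjusted p = 3.37e-04 and 8.58e-05). Bclaf1 fell to 79.4% of WT with shRNA1 and to 67.5% with shRNA3.

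Of the 10 SR kinases listed, 9 were tested. Clk1, a kinase that phosphorylates SR proteins and is itself regulated by intron retention, rose with each hairpin. It was at 71.7 and 71.6 FPKM in the WT pair, 94.4 and 97.8 in the shRNA1 pair, and 107 and 103 in the shRNA3 pair, with log2 changes of 0.42 ± 0.04 and 0.54 ± 0.04 (SE, adjusted p = 2.68e-04 and 3.95e-05). No group overlapped another. Clk4, picked after its values were seen, rose from 24.8 ± 0.554 FPKM (SD, n = 2) to 30.1 ± 2.49 and 29.6 ± 0.746. Dyrk1b fell from 15.8 ± 0.382 FPKM to 12.8 ± 0.326 and 13.3 ± 0.391. In all, 2 kinases were higher and 2 lower with shRNA1, and 2 higher and 4 lower with shRNA3. With shRNA1 that is 22.2% each way, against 17.6% higher and 18.4% lower over all genes tested. With shRNA3 it is 22.2% higher and 44.4% lower, against 27.4% and 27.8%.

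Core snRNP proteins, which form the spliceosome itself, were lower in 5 of 28 cases and higher in 1 with shRNA1 (median -0.01), and lower in 14 and higher in 5 with shRNA3 (median -0.16). Prpf31 was at 59.1% of WT with shRNA3 (adjusted p = 9.89e-05) and Sf3b4 at 70.3% (adjusted p = 2.22e-04). Of 15 factors of nonsense-mediated decay and the exon junction complex, 3 were lower and 0 higher with shRNA1, and 9 lower and 0 higher with shRNA3 (median -0.20). At an unadjusted p under 0.05 in limma, 0 and 1 of them were higher. Upf3a was at 78.9% and 80.3% of WT, and Magohb was at 68.2% with shRNA3 (adjusted p = 0.00160). Of 12 splicing factors specific to cell types 8 were tested. With shRNA1 1 (12.5%) was lower and 0 higher (0 also at an unadjusted p under 0.05 in limma). With shRNA3 3 (37.5%) were higher and 1 (12.5%) lower, Rbm38 at 128% and Mbnl3 at 55.1% of WT (adjusted p = 0.00518 and 0.00155). The shares over all genes tested were 17.6% higher and 18.4% lower with shRNA1, and 27.4% and 27.8% with shRNA3. Esrp1, the epithelial splicing factor, was listed at 0 in all 6 libraries. Of the 4 import receptors, which carry SR and hnRNP proteins into the nucleus, Tnpo2 was higher with shRNA3 (127% of WT, adjusted p = 0.00144) and 0 were called with shRNA1 (0 also at an unadjusted p under 0.05 in limma). The single call is 25.0% of these receptors, against 27.4% of all genes higher with shRNA3.

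**Figure D4:**
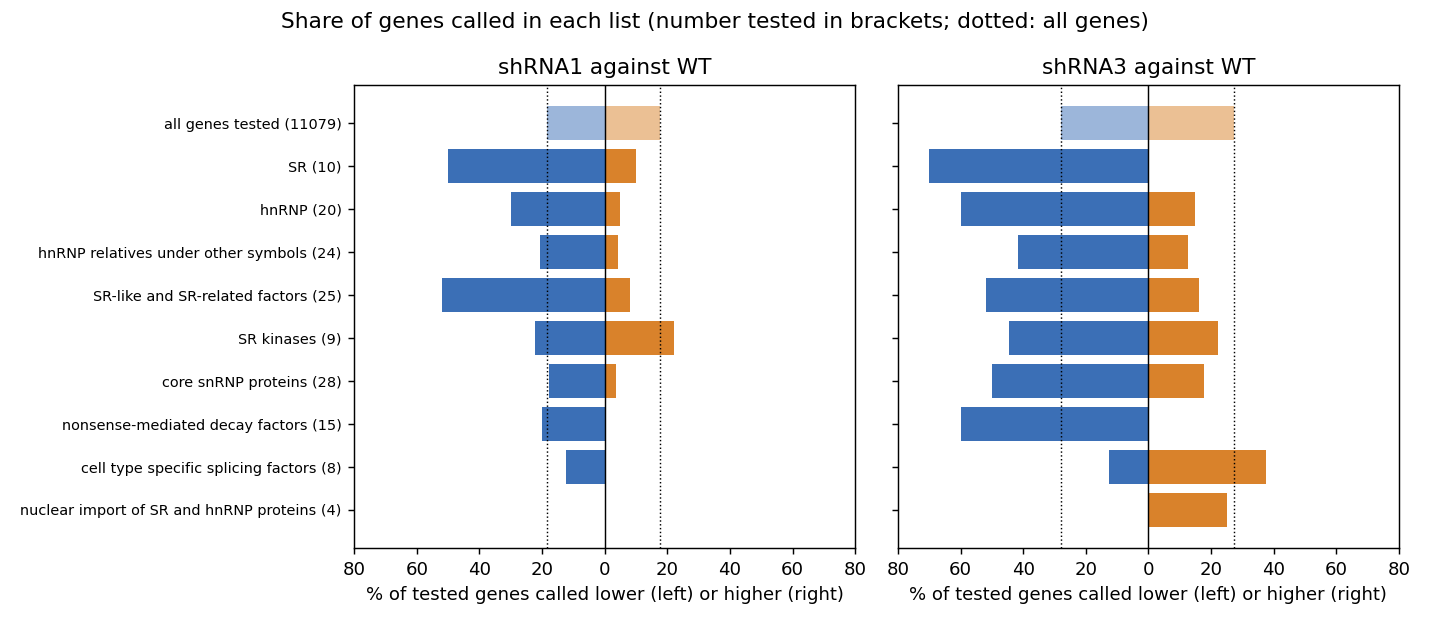
Percentage of tested genes called lower (blue, left) or higher (orange, right) with shRNA1 and shRNA3 against WT, for each list of splicing genes; the number tested stands in brackets and dotted lines mark all 11079 genes. With shRNA3 7 of 10 SR and 12 of 20 hnRNP genes were lower, against 27.8% of all genes.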

How the data were processed

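For each library the authors deposited a table of values by gene symbol. The deposited tables state no unit. The values were taken to be FPKM because Cufflinks 2.2.1 is named, per the submitters' processing notes, beside TopHat2 2.0.13, Bowtie2 2.2.3, SAMtools 0.1.19 and mm10, with no roles. The annotation, the strand setting and the handling of multi-mapping reads are not stated. RNA was prepared with a stranded mRNA kit, per the labels' protocols.

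A means model of 3 groups over all 6 libraries was fitted with limma 3.58.1 (R 4.3.3), with a variance trend, 3 residual and 4.96 prior degrees of freedom, and two-sided tests. A fold on the log2(FPKM + 1) scale understates changes of low genes. The fit was tested on simulated data. Coordinates, transcript classes and stretches of 50 bases shared with other genes came from GENCODE mouse release 21 (the stretches from the longest coding transcript), in which all 30 members matched 1 gene. RefSeq promoter windows were found for 28. Scripts used NumPy 2.4.6 and pandas 2.3.3 under Python 3.11.15, and figures matplotlib 3.10.9.

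Library values and tests were to be given, per family, for the 4 members of highest mean, up to 4 called lower and up to 4 called higher with both hairpins, the 3 with the largest called difference between the hairpins, and any called in opposite directions. Other lists give up to 2 called genes. Values of further members were added after they were seen. Members, lists and this rule were chosen with earlier results of these data known, and the promoter motifs and printed promoters after the values were seen. As alternatives, the pseudocount was set to 0.1 or 0.5, the filter was dropped or raised to a mean of 5, libraries were scaled by median of ratios, by quantiles or to the same total, the variance trend was dropped, the replicate number was a block, and each library was left out.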

Additional observations from a re-analysis of the deposited data

How the results depend on the processing

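Of 56 calls of members over the 3 comparisons, 44 held under each of the 15 alternatives run, and no called change turned its direction. The number of SR genes lower with shRNA1 (5) was 3 without a variance trend and 3 with the replicate number as a block. The replicate block ended the calls of Srsf3 and Srsf9 with shRNA1 and of Hnrnpr between the hairpins, and no other call of a member. Same-numbered libraries deviated together weakly (correlations of 0.01, -0.07 and 0.20), so the numbers are not taken as pairs. With libraries rescaled to the same total, hnRNP genes higher with shRNA3 went from 3 to 1, and medians were -0.19 (SR, shRNA1), -0.34 (SR, shRNA3), -0.0621 (hnRNP, shRNA1), -0.42 (hnRNP, shRNA3) and -0.29 (hnRNP, between hairpins). That scaling also moved the median of all genes to -0.06 with shRNA1 and -0.08 with shRNA3, and the share of higher among all calls from 49.0% to 34.9% and from 49.7% to 37.6%. With quantile normalization the medians were -0.29 (SR, shRNA3), -0.0344 (hnRNP, shRNA1), -0.37 (hnRNP, shRNA3) and -0.25 (hnRNP, between hairpins), and with median-of-ratios scaling 0.0066 (hnRNP, shRNA1). The cause of these moves, other than the scaling itself, was not tested.

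Leaving out 1 library at a time gave 2 to 4 SR genes lower with shRNA1, 0 to 1 higher with shRNA3, 0 to 1 higher between the hairpins, and 1 to 3 hnRNP genes higher with shRNA3. The medians ran from -0.30 to -0.24 (SR, shRNA3), -0.31 to -0.22 (SR, between hairpins), -0.0728 to 0.0347 (hnRNP, shRNA1) and -0.29 to -0.25 (hnRNP, between hairpins). A group left with 1 library was assumed to vary like the others. The absolute depth is unknown, so no counting error is given.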
